A study of Mus musculus with 23 samples.

Results

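The 6 genes of the platelet-derived growth factor (PDGF) system are described here by the open chromatin called at and around them in mouse maxillary mesenchyme, the tissue of the future upper jaw and palate. They are the receptors Pdgfra and Pdgfrb and the ligands Pdgfa, Pdgfb, Pdgfc and Pdgfd. Peaks of 9 lists that shared at least 1 bp were merged into 118102 regions. A region belonged to a gene when that gene was the nearest protein-coding gene, at a distance of 0 inside the gene body and of at most 100 kb outside it. This gave 63 regions to the PDGF genes: 22 to Pdgfra, 7 to Pdgfrb, 16 to Pdgfa, 8 to Pdgfb, 7 to Pdgfc and 3 to Pdgfd. None of the 63 lay equally near to another gene. All coordinates are of mm10.

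PDGF ligands are secreted dimers that bring receptor chains together at the cell surface, after which the receptors phosphorylate one another and recruit adaptors, phosphoinositide 3-kinase, phospholipase C gamma and the Ras pathway. PDGFRα binds the A and C chains and PDGFRβ binds the B and D chains most strongly, and the C and D chains are secreted in a latent form that proteases must cleave. In the embryonic face Pdgfra is expressed in neural crest-derived mesenchyme, its ligands are made largely by the overlying epithelium, and loss of Pdgfra or of both Pdgfa and Pdgfc leads to facial clefts. PDGFRβ is best known from pericytes and vascular smooth muscle, which follow PDGF-B released by endothelial cells.

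Open chromatin was measured by ATAC-seq, in which the transposase Tn5 inserts sequencing adapters where DNA is accessible. The embryos were wild type, of the strain C57BL/6, and came from 3 stages, embryonic day 10.5 (written E10.5), E11.5 and E12.5, with no treatment. The maxillary prominences were freed of ectoderm after Dispase digestion, and each stage had 3 biological samples, each with 1 peak list. The comparison of stages asks how accessibility around the genes changes while the prominences grow out.

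Promoter sequences show how differently the genes start, and they are printed because the calls at the starts differ in the same genes. RefSeq windows (GRCm38.p6, the assembly of mm10) were on hand for 4 of the 6 genes, with 2 windows for Pdgfa. Pdgfb and Pdgfrb had no entry. The 250 bases before each transcription start follow, 5′ to 3′ on the gene's strand, in lower case. Capitals mark a GC box in the Pdgfa windows (GGGCGG, or CCGCCC where it lies on the opposite strand) and the letters TATAAA in the Pdgfd window. Those letters lie closer to the far end of the window than to the transcription start, so they are not taken for a working TATA box.
Pdgfa, first window, chr5:138994282-138994531, minus strand: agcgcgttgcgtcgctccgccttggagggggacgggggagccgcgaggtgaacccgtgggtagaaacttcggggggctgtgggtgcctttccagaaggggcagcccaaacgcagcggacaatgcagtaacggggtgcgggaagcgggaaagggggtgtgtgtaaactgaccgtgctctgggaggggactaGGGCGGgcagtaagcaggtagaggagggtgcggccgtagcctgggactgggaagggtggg
Pdgfa, second window, chr5:138994945-138995194, minus strand: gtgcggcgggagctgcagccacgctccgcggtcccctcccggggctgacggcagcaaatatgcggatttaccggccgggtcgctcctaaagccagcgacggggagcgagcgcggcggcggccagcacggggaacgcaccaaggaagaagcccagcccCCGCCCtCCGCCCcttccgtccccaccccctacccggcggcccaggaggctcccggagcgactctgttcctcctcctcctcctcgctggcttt
Pdgfc, chr3:81036166-81036415, plus strand: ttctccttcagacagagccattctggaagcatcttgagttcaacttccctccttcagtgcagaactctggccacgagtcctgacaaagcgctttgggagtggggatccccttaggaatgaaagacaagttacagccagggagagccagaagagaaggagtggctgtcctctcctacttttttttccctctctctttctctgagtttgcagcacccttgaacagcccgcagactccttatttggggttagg
Pdgfd, chr9:6168236-6168485, plus strand: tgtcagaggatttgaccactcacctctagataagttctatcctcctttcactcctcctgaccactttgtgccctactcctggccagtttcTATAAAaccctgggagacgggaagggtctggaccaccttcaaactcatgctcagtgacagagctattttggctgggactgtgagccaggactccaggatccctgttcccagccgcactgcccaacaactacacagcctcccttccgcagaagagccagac
Pdgfra, chr5:75152001-75152250, plus strand: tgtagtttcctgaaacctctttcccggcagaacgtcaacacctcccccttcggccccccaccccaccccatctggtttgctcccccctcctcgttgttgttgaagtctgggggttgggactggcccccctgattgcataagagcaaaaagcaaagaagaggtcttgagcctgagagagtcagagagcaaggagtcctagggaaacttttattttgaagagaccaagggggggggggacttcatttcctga

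The Pdgfa windows were rich in CpG, with 19 and 28 CpG dinucleotides and CpG ratios, observed over expected from base composition, of 0.819 and 0.871. The Pdgfc, Pdgfd and Pdgfra windows held 3, 3 and 4 CpG, with ratios of 0.187, 0.176 and 0.217, under the median of 0.537 over 21045 promoter windows. The GC content was 66.4% and 72.4% for Pdgfa, 50.8% for Pdgfc, 53.6% for Pdgfd and 54.4% for Pdgfra, against a median of 55.6%. GGGCGG was found once in the first and at 2 places in the second Pdgfa window and is in 43.1% of all windows. TATAAA was found in the Pdgfd window alone among the 5 and is in 11.7% of all. None of the 5 windows held CCAAT, the E-boxes CACGTG and CAGCTG, the homeodomain core TAATTA, the AP-2 motif GCCNNNGGC, the AP-1 motif TGANTCA or the ETS motif CCGGAAG. Those 7 motifs are in 4.24% to 35.7% of all windows, with both strands searched and N standing for any base. These letter matches describe the windows and do not show that a factor binds.

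A region lay over the CpG-poor Pdgfd start and another began 11 bp after the CpG-poor Pdgfc start, while the CpG-rich Pdgfa starts had none. With the 50 bases after the start included, neither Pdgfa window overlapped a peak in any list. Over all genes, 84.2% of the 9502 windows with a CpG ratio of at least 0.6 overlapped a peak in 1 or more lists, and the Pdgfa windows belonged to the other 1504 (15.8%). The CpG-poor Pdgfc window met a peak in 7 lists and the Pdgfd window in all 3 E11.5 lists, while 29.3% of the windows under a ratio of 0.6 met a peak in any list. The Pdgfra window met none. The ratio of 0.6 that separates these groups was chosen after the data were seen.

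The 9 lists differed in length and in fold scale, which bears on every count that follows. An E10.5 list held 14886 to 19095 peaks, an E11.5 list 5682 to 41457 and an E12.5 list 19139 to 50361. The highest fold over background was 5.83 to 7.47 in the E10.5 lists, 17.9 to 20.4 in the E11.5 lists and 6.62 to 14.7 in the E12.5 lists. The median fold was 5.06 and 4.98 in E11.5 samples 1 and 2, above the other lists, and 3.13 in E11.5 sample 3, inside the range of 2.47 to 3.50 over the E10.5 and E12.5 lists. E11.5 samples 1 and 2 thus stood apart by both measures and E11.5 sample 3 by its highest fold alone. No test was made on folds across lists, and a stage and its libraries cannot be told apart. The lists give no read counts, so the depth behind a call is unknown, and a region that was not called is not shown to be closed. The samples are bulk tissue, in which fewer cells with an open region and less opening per cell cannot be told apart.

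Most PDGF regions rested on 1 list. Of the 63, 45 (71.4%) were called by a single list, against 68.8% of all regions, and 18 by 2 or more. Their median length was 179 bp, against 195 bp over all regions. There were 25 regions inside the gene bodies and 38 outside, and 6 lay within 1 kb of a gene boundary. The E10.5 lists called 11 of them (17.5%), the E11.5 lists 23 (36.5%) and the E12.5 lists 43 (68.3%), against 28.2%, 41.2% and 61.8% of all regions. All regions thus had the same order of stages. Regions seen at E12.5 alone numbered 33 (52.4%, against 42.7% of all regions), at E11.5 alone 16 (25.4%, against 24.0%) and at E10.5 alone 2 (3.17%, against 10.97%).

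Per list, 5, 6 and 6 of the 63 regions were called in E10.5 samples 1, 2 and 3. The E11.5 samples called 3, 11 and 19, and the E12.5 samples 13, 24 and 14. The E11.5 counts overlapped with those of both other stages and followed the lengths of the E11.5 lists. As a share of all regions in the list, the PDGF regions made up 0.0329%, 0.0322% and 0.0433% in the E10.5 samples. The shares were 0.0546%, 0.0448% and 0.0498% in the E11.5 samples, and 0.0513%, 0.0492% and 0.0765% in the E12.5 samples. No E10.5 share reached the lowest share of the later stages, but the nearest 2, 0.0433% and 0.0448%, rested on 6 and 11 calls. Other sets of genes were not compared in this way.

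**Figure D1:**
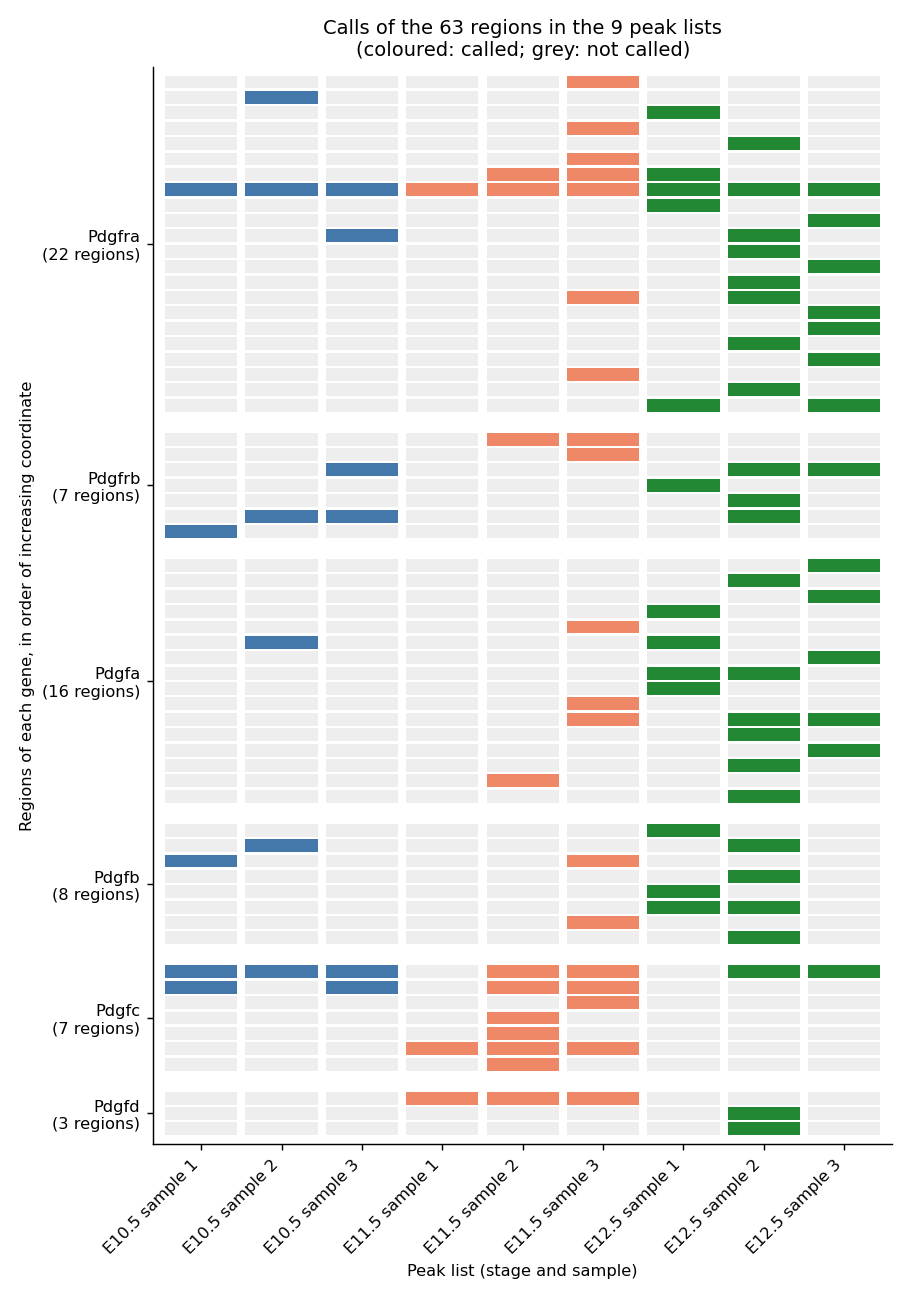
Calls of the 63 PDGF regions (rows, in order of coordinate within each gene) in the 9 peak lists (columns, blue E10.5, orange E11.5, green E12.5). The single full row lies in Pdgfra, most Pdgfra and Pdgfa rows have 1 green cell, and all 7 Pdgfc rows have an orange cell.

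Pdgfra, the receptor that marks facial mesenchyme, had the most regions of the 6 genes and the one region that every list called. The order by number of regions depended on the threshold: with a −log10 q of at least 5 Pdgfra kept 2 regions, Pdgfa 3, Pdgfc 5, Pdgfrb and Pdgfd 1 each and Pdgfb 0. As deposited, its 22 regions put it among the 723 genes (3.34%) of 21631 with as many or more, while genes with any region had a median of 4. The body spans chr5:75151322-75198206, 46.9 kb, between Gsx2, 73.4 kb away on the low-coordinate side, and Kit, another receptor tyrosine kinase, 377 kb away on the other side. There were 6 regions inside the body, 7 before its start and 9 beyond its end.

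The region called by all 9 lists lay inside the Pdgfra body at chr5:75155688-75156535, 3437 bp after the transcription start given above. Its fold over background, the value the authors' peak caller gave at the summit, was 2.95, 2.83 and 2.58 in E10.5 samples 1 to 3. It was 3.97, 4.17 and 3.42 in the E11.5 samples and 3.45, 2.90 and 2.66 in the E12.5 samples. Its −log10 q ran from 3.02 in E11.5 sample 1 to 8.55 in E10.5 sample 2. Within its own list the peak ranked above 76.3%, 92.0% and 79.1% of peaks in the E10.5 samples, 21.1%, 52.1% and 78.5% in the E11.5 samples, and 70.7%, 95.5% and 79.9% in the E12.5 samples. It was therefore among the upper peaks of its list in all samples except E11.5 samples 1 and 2. Over the genome 1206 regions (1.02%) were called by all 9 lists, and 154 of those (12.8%), the Pdgfra region included, lay more than 1 kb from any gene boundary.

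The start of Pdgfra itself gave few calls. The nearest region, chr5:75150676-75150903, had its near edge at −1348 bp from the transcription start, 0.42 kb before the annotated body. E11.5 samples 2 and 3 and E12.5 sample 1 called it, with folds of 3.71, 2.95 and 4.24, and no E10.5 list did. Only 3 other Pdgfra regions were called by more than 1 list, each by 2. These were chr5:75187940-75188334 inside the body (E10.5 sample 3 and E12.5 sample 2, folds 2.40 and 2.85), chr5:75208790-75208994 beyond the end (E11.5 sample 3 and E12.5 sample 2, folds 3.36 and 2.44) and chr5:75291887-75292061 towards Kit (E12.5 samples 1 and 3, folds 4.32 and 2.97). The other 17 had 1 list each, 12 of them at E12.5, 4 at E11.5 and 1 at E10.5. Some neighbours nearly touched: 3 regions between positions 75208584 and 75209173 lay 84 and 0 bases apart.

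**Figure D2:**
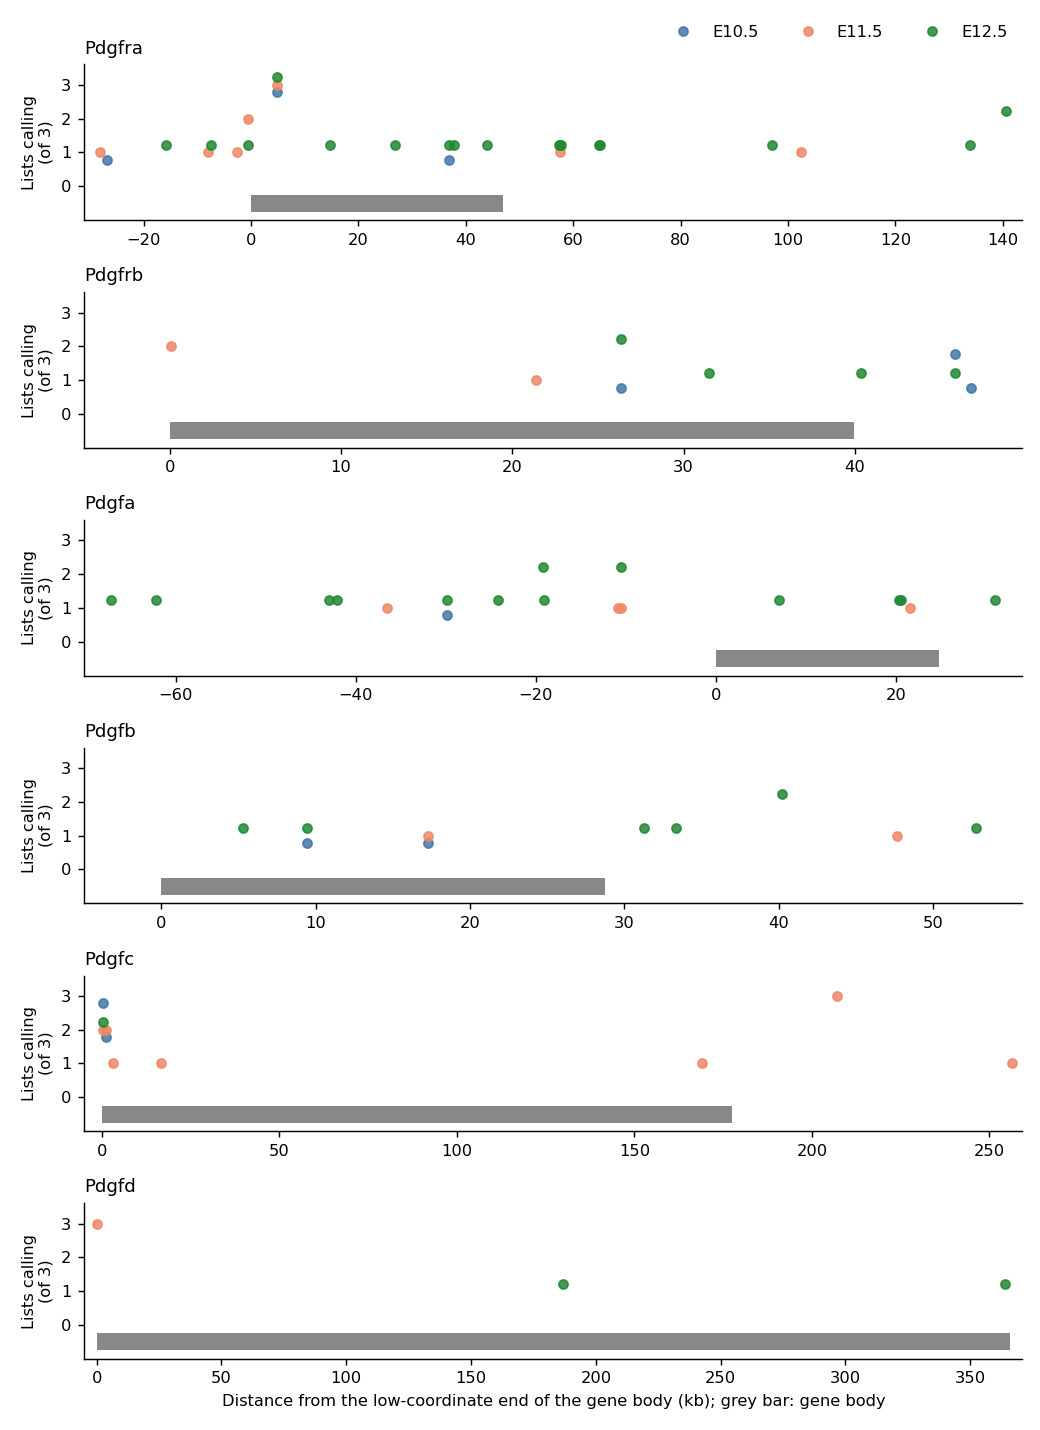
Position of each region (kb from the low-coordinate end of the gene body, drawn as a grey bar) and the number of the 3 lists of each stage that called it. Stages are shifted slightly in height so that points at one position can be seen, and the 9 calls of Pdgfra stand 4.37 kb inside the body while the Pdgfa points lie mostly on the low-coordinate side.

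Pdgfrb, the receptor of mural cells, had 7 regions, and none of them was called by all 3 lists of a stage. Its body, chr18:61045127-61085067, starts 0.414 kb from the predicted gene Gm52351 and ends 20.5 kb before Csf1r, the receptor of macrophage colony-stimulating factor. A region over the low-coordinate boundary, chr18:61045030-61045364, was called in E11.5 samples 2 and 3, with folds of 3.69 and 2.67, and in no list of the other stages. This region lies within 1 kb of both genes. The regions with the most lists had 3 each. Inside the body, chr18:61071249-61071647 was called in E10.5 sample 3 and E12.5 samples 2 and 3, with folds of 2.06, 2.02 and 2.61. Beyond the end, chr18:61090702-61091258 was called in E10.5 samples 2 and 3 and E12.5 sample 2, with folds of 2.33, 2.24 and 2.65. Both were called at the first and last stage and in no E11.5 list.

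Pdgfa, a ligand of PDGFRα, had 16 regions, a number that 1493 genes (6.90%) reach, and 13 of the 16 were called by a single list. The gene is on the minus strand (body chr5:138976014-139000792), so the 11 regions on its low-coordinate side lie beyond its 3′ end, in the 154 kb before Gm5294. Another 4 lay inside the body and 1 on the side of Prkar1b, which starts 16.5 kb away. The annotated body reaches upstream of both printed starts. Regions inside it had their near edges at −1412, −1559 and −2527 bp from the nearer of these starts. They were called by 1 list each, E12.5 sample 3, E12.5 sample 2 and E11.5 sample 2. The E10.5 lists called 1 of the 16 (6.25%), the E11.5 lists 4 (25.0%) and the E12.5 lists 13 (81.3%), against 28.2%, 41.2% and 61.8% of all regions. The best supported region, chr5:138965325-138965575, lay 10.4 kb beyond the 3′ end and was called in E11.5 sample 3 and E12.5 samples 2 and 3. Its folds there were 2.44, 1.98 and 2.26, and it ranked above 21.8%, 8.53% and 8.26% of the peaks of those lists, which places it among their weaker peaks. No Pdgfa region was within 1 kb of a gene boundary.

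Pdgfb, a ligand of PDGFRβ, had 8 regions, 3 inside its body (chr15:79995865-80024614) and 5 on the side of Rpl3. No list called one within 1 kb of either end. A set of 3 regions had 2 lists each. The region chr15:80005126-80005460 was called in E10.5 sample 2 and E12.5 sample 2 with folds of 1.96 and 2.20. The region chr15:80013019-80013204 was called in E10.5 sample 1 and E11.5 sample 3 with folds of 2.63 and 2.36. The region chr15:80035999-80036119 was called in E12.5 samples 1 and 2 with folds of 3.95 and 2.59. The other 5 had 1 list each. Among the E11.5 lists sample 3 alone called any of the 8.

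Pdgfc is the second ligand of PDGFRα, and all 7 of its regions were called at E11.5, 5 of them at no other stage. Over all regions 41.2% were called at E11.5 and 24.0% at E11.5 only. The body is long, 178 kb (chr3:81036416-81214040), and lies between the predicted gene Gm29808, 34.8 kb before its start, and Ctso, 719 kb beyond its 3′ end. At the start, chr3:81036427-81037084 began 11 bp after the transcription start and was called by 7 lists. Its folds were 3.88, 2.80 and 2.50 in the E10.5 samples, 4.56 and 3.04 in E11.5 samples 2 and 3, and 2.73 and 3.24 in E12.5 samples 2 and 3. E11.5 sample 1 and E12.5 sample 1 did not call it. A second region 172 bases on, chr3:81037257-81037764, was called in E10.5 samples 1 and 3 and E11.5 samples 2 and 3, with folds of 3.23, 2.83, 4.58 and 3.36, and in no E12.5 list.

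The other 5 Pdgfc regions were called at E11.5 alone. One of them, chr3:81243318-81243931, lies 29.28 kb beyond the 3′ end and was called by all 3 E11.5 lists, with folds of 5.06, 6.00 and 2.56 and −log10 q of 4.40, 7.73 and 1.39. It ranked above 41.0%, 57.9% and 1.02% of the peaks of those lists, so in sample 3 it was one of the weakest peaks. E11.5 sample 2 alone called 3 more, at chr3:81052960-81053142 in the body with a fold of 3.89, at chr3:81205184-81205708 near the 3′ end with 6.36, and at chr3:81292476-81293029 beyond it with 8.83. E11.5 sample 3 alone called the last, chr3:81039343-81039513, with a fold of 3.04. Thus 3 of the 4 single-list Pdgfc regions came from 1 library.

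Pdgfd, the second ligand of PDGFRβ, had 3 regions in a 366 kb body (chr9:6168363-6534284), and 1 of them covered its start. That region, chr9:6168087-6169037, spans the TATAAA match printed above and had the highest fold of the PDGF peaks in each E11.5 list. Its fold was 5.79, 9.34 and 5.45 in E11.5 samples 1, 2 and 3, with −log10 q of 6.07, 21.4 and 12.6, and it ranked above 59.1%, 88.0% and 87.9% of those lists. None of the 6 lists of E10.5 and E12.5 called it. E12.5 sample 2 alone called the other 2, chr9:6355137-6355261 and chr9:6532278-6532400, with folds of 2.39 and 2.90. Pdgfc and Pdgfd were also the only members with regions farther than 100 kb that had them as the nearest gene, 3 and 4 of them, which are not among the 63.

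**Figure D3:**
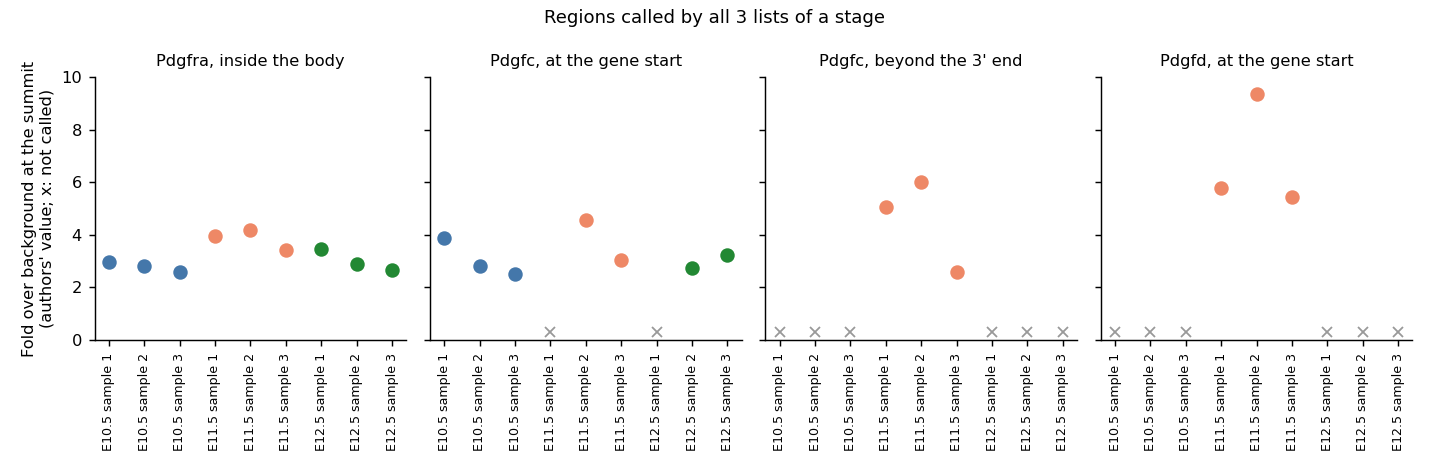
Fold over background at the summit (the authors' value, linear axis from 0) in each list for the 4 PDGF regions that all 3 lists of a stage called, with a cross at the base where a list had no call. The Pdgfra region has 9 values between 2.58 and 4.17, and the Pdgfd start has 3 values at E11.5, the highest 9.34, and crosses elsewhere.

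Regions were also compared between stages by the lists alone. Gained regions were called by 3 of 3 lists at the later stage and by 0 of 3 at the earlier, and lost regions the other way round. From E10.5 to E11.5, 2 of the 63 PDGF regions were gained, against 759 (0.643%) of all regions, and 0 were lost, against 0.149%. From E11.5 to E12.5, 0 were gained, against 0.561%, and 2 were lost, against 1455 (1.23%). Between E10.5 and E12.5, 0 were gained and 0 lost, against 0.478% and 0.307%. The same 2 regions made both counts, the Pdgfd start and the Pdgfc region 29.28 kb beyond the gene. A call in all 3 E11.5 lists and in no other was found for 618 of the 118102 regions (0.523%), and at 320 of 21045 promoter windows (1.52%), the Pdgfd window among them. The number of PDGF regions gained or lost in any comparison was 5 without E11.5 sample 1, 4 without E12.5 sample 1 or sample 3, and 1 with a −log10 q of at least 5, with lists of equal length or within 20 kb. With a sample left out, only the remaining lists of its stage had to meet the rule, which makes it looser. No share of all regions is given for these settings. The first 2 comparisons share the E11.5 lists, of which samples 1 and 2 had the highest median folds, and the part of that scale was not tested.

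Because longer lists call more regions, the calls of each gene were also set against the number expected in each list. The expectation came from a model with 1 term per list and 1 per region (a Rasch model), given how many lists called each region. It used regions called by 1 to 8 lists, so the Pdgfra region called by all 9 took no part. The residual of a gene in a list is its calls minus the expected calls, scaled by the standard deviation that the model gives. These residuals were compared between stages with limma over the 7487 genes with 5 or more such regions, Pdgfd not among them.

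**Figure D4:**
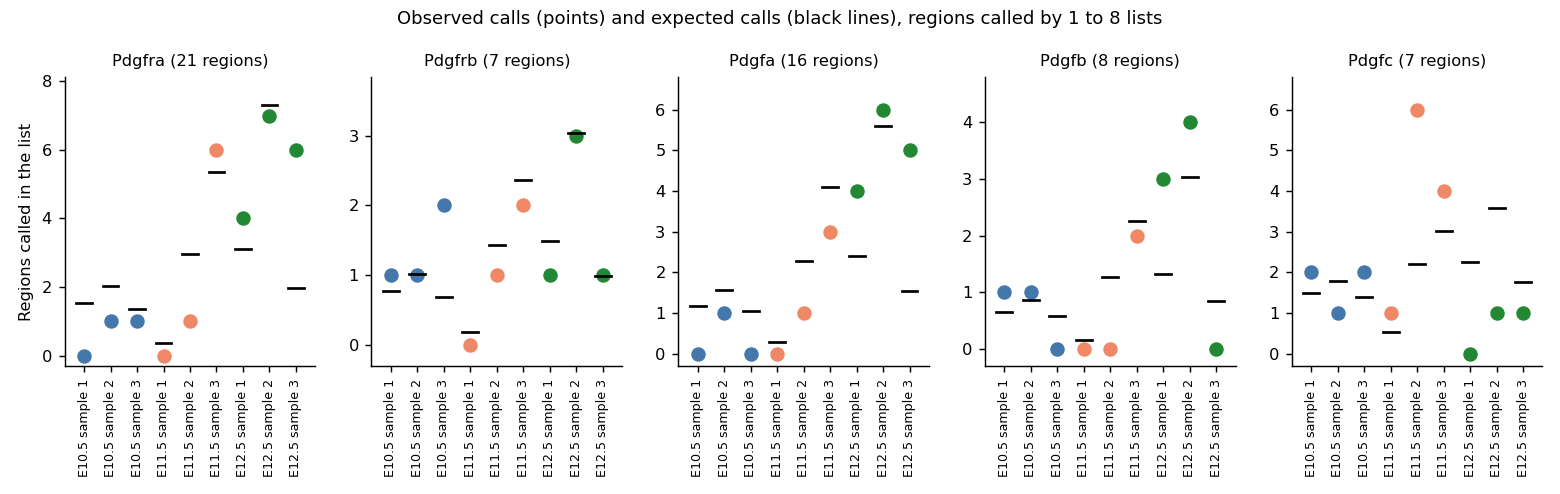
Regions called in each list (points, coloured by stage) and the number expected for a list of that length (black lines), for the 5 PDGF genes tested. For Pdgfc the 3 E11.5 points lie above their lines and the 3 E12.5 points below theirs, while for Pdgfra and Pdgfa the largest excess is in E12.5 sample 3.

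Pdgfc had its calls mostly in the E11.5 lists. All 7 of its regions had a call at E11.5 and 2 had one at another stage, so the gene reached the minimum of 5 regions only through the stage where its calls were high. Its test is therefore given as a description of these lists and not as evidence of a change. Its 7 regions were called 2, 1 and 2 times in the E10.5 lists, 1, 6 and 4 times in the E11.5 lists and 0, 1 and 1 times in the E12.5 lists. Expected were 1.503, 1.78 and 1.39, then 0.525, 2.20 and 3.02, then 2.25, 3.58 and 1.75. Every E11.5 list was above its expectation and every E12.5 list below, although the raw calls of E11.5 sample 1 equalled those of 2 E12.5 lists. How many other genes separate in this way was not counted. The mean was 3.67 ± 2.52 calls (SD, n = 3 lists) in the E11.5 lists and 0.667 ± 0.577 in the E12.5 lists. The residual difference was −3.59 ± 0.853 (SE), with a Benjamini-Hochberg adjusted p of 0.00618 in limma. Among all genes, 242 (3.23%) passed this comparison and 159 (2.12%) passed in the direction of fewer calls at E12.5. The minimum counts regions called at any stage, so other genes could enter the test in the same way. The call was lost without E12.5 sample 1 (limma adjusted p = 0.0556) or E12.5 sample 2 (0.0546). Leaving out E11.5 sample 2 left 4 regions, too few to test. It was also lost when peaks needed a −log10 q of at least 5 (difference −0.69, limma adjusted p = 0.611) or regions had to lie within 20 kb (−2.43, 0.116). Over the alternatives that could be fitted, the limma adjusted p ranged from 0.00365 to 0.611.

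Pdgfc did not pass for E11.5 against E10.5 (residual difference 1.67, limma adjusted p = 0.512) or for E12.5 against E10.5 (−1.92, 0.520).

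No other PDGF gene passed in any of the 3 comparisons. For E11.5 against E10.5, 0 of the 5 tested PDGF genes passed, against 18 of 7487 (0.24%), and 0 had an unadjusted limma p under 0.05, against 748 of all genes. For E12.5 against E10.5, 0 of 5 passed, against 1 gene (0.0134%), while 3 had an unadjusted limma p under 0.05, against 657 of 7487 genes. These were Pdgfa and Pdgfra with more calls and Pdgfc with fewer. For E12.5 against E11.5, Pdgfa and Pdgfc had an unadjusted limma p under 0.05, in opposite directions, against 1301 of 7487 genes.

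Pdgfa and Pdgfra had more calls at E12.5 than before, by differences that did not pass. The 16 Pdgfa regions were called 0, 1 and 0 times in the E10.5 lists, 0, 1 and 3 times in the E11.5 lists and 4, 6 and 5 times in the E12.5 lists, where 2.39, 5.61 and 1.53 calls were expected. All E12.5 lists were above all others in calls, but 10 of the 16 regions were members through a single E12.5 list. How many other genes separate in this way was not counted. The residual difference of E12.5 from E10.5 was 2.36 ± 0.836 (SE; limma p = 0.00579, adjusted p = 0.362) and from E11.5 2.16 (adjusted p = 0.143). For the 21 Pdgfra regions tested, the calls were 0, 1 and 1, then 0, 1 and 6, then 4, 7 and 6, where 3.10, 7.32 and 1.99 were expected at E12.5. E12.5 sample 2 thus lay below its expectation and E12.5 sample 3 above. The differences of E12.5 from E10.5 and from E11.5 were 1.95 and 1.66 ± 0.847 (SE; limma adjusted p = 0.509 and 0.296). E12.5 sample 3 gave the largest residual of both genes, 2.99 for Pdgfa and 3.04 for Pdgfra.

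Pdgfb and Pdgfrb did not pass, and some of their lists departed from expectation. Pdgfb had 3 calls against 1.32 expected in E12.5 sample 1 and 0 against 1.27 in E11.5 sample 2, and Pdgfrb 2 against 0.688 in E10.5 sample 3. Pdgfb was called 1, 1 and 0, then 0, 0 and 2, then 3, 4 and 0 times, and its residual differences were −0.55 for E11.5 from E10.5, 1.07 for E12.5 from E11.5 and 0.51 for E12.5 from E10.5 (limma adjusted p = 0.886, 0.538 and 0.914). Of its 8 regions 5 were called at E12.5 alone, so Pdgfb reached the minimum of 5 regions only through the E12.5 lists. Its test is therefore a description of these lists. Pdgfrb was called 1, 1 and 2, then 0, 1 and 2, then 1, 3 and 1 times, with differences of −1.05, 0.23 and −0.82 (limma adjusted p = 0.743, 0.916 and 0.820). The standard errors were 0.826 to 0.838, so these values do not show that the calls of the 2 genes stayed level.

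**Figure D5:**
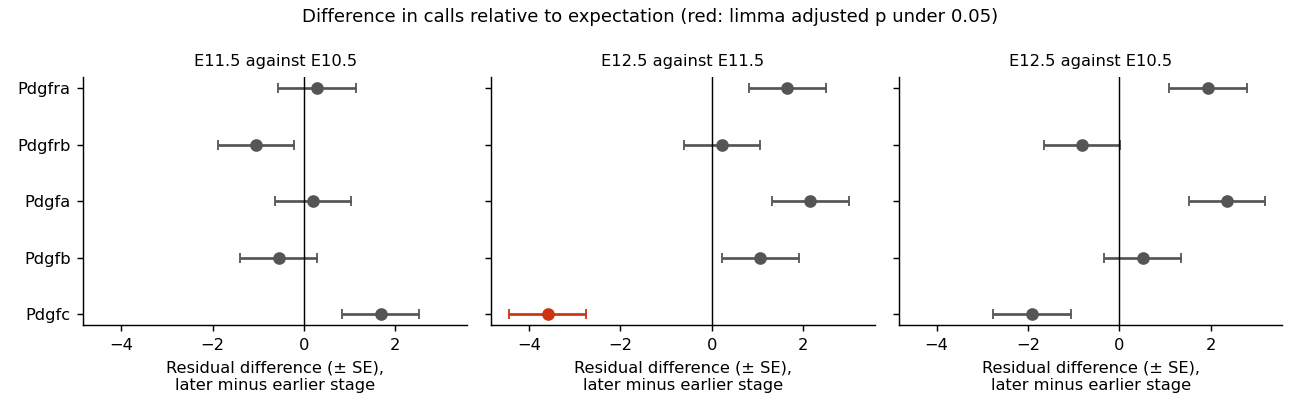
Residual difference of each tested PDGF gene in the 3 comparisons of stages (points, with bars of 1 SE, later minus earlier stage). The Pdgfc point for E12.5 against E11.5, −3.59, is the only one drawn in red for a limma adjusted p under 0.05.

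Of the signalling pathway downstream and around the receptors, 2 genes passed. Of 51 genes for proteases, coreceptors, adaptors, kinases, phosphatases and response factors of PDGF signalling, all had a region and 34 could be tested. Of these, 1 passed with more and 1 with fewer calls for E12.5 against E11.5, and 0 passed in the other 2 comparisons. Over all genes 3.23% passed the former comparison, so 2 of 34 is near the background. Plcg2, a phospholipase C gamma, had 20 regions, called 0, 0 and 0 times in the E10.5 lists, 0, 2 and 4 times in the E11.5 lists and 9, 12 and 3 times in the E12.5 lists. Its E12.5 difference from E11.5 was 2.71 (limma adjusted p = 0.0485), and it passed in 1 of the 9 fits that left out a sample, that without E12.5 sample 3 (0.0185, range 0.0185 to 0.228). With so few earlier calls, most of the 20 Plcg2 regions were members through E12.5 lists alone. The Plcg2 test is therefore a description and not evidence of a change. The median residual difference of the 34 genes was 0.36, 0.07 and 0.09 for E11.5 from E10.5, E12.5 from E11.5 and E12.5 from E10.5, against −0.17, 0.26 and 0.04 over all genes tested. Of 15 genes of the related KIT, CSF1R, FLT3 and VEGF receptors and their ligands, 9 could be tested and 0 passed, with medians of −0.71, 1.11 and 0.29.

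Marker genes were read for the cell types that express PDGF receptors and ligands. All 15 mesenchyme markers had a region, and their calls were 1.09 to 1.48 times expectation in the E10.5 lists, 0.744 to 1.32 times in the E11.5 lists and 0.777 to 0.950 times in the E12.5 lists. Of the 10 that could be tested, Col1a2, a collagen of connective tissue, passed with fewer calls for E12.5 against E11.5 (limma adjusted p = 0.0224). Over all genes 159 (2.12%) passed in that direction. The Col1a2 call was lost without E12.5 sample 1, 2 or 3 (limma adjusted p = 0.0599, 0.14 and 0.0604, range 0.00463 to 0.14). Leaving out E11.5 sample 2 left too few regions, so Col1a2 reached the minimum of 5 regions only through its E11.5 calls. As for Pdgfc, its test is a description and not evidence of a change. Endothelial markers, all 13 with a region, stood at 0.865 to 1.17, 0.196 to 0.911 and 1.02 to 1.45 times expectation in the same order of stages. Of the 8 that could be tested, Erg alone, an endothelial transcription factor, passed, with more calls for E12.5 against E11.5 (limma adjusted p = 0.0183). Over all genes 83 of 7487 passed in that direction. Erg did not pass without E11.5 sample 2 (limma adjusted p = 0.282) or E12.5 sample 1 (0.121), with a range of 0.00762 to 0.282. Pericyte and smooth muscle markers, the cells known for PDGFRβ, all 12 with a region, stood at 0.914 to 1.06, 0.595 to 1.26 and 0.722 to 1.04 times expectation, and 0 of the 5 tested passed. Epithelial markers had a region in 12 of 13 genes, the exception being Krt15, and stood at 0.787 to 0.951, 0.703 to 1.10 and 0.679 to 1.32. Blood and neural markers, all 10 of each with a region, stood between 0.578 and 1.37 and between 0.683 and 1.24. The part of these cell types in the PDGF calls was not tested.

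The genes whose residuals ran most like those of each member over the 9 lists were named by their Pearson correlation among 7486 other genes. They were Sh2d4b (r = 0.974) and Fam136a (0.960) for Pdgfra, Rnf212b (0.957) and Gnb4 (0.943) for Pdgfrb, and Mnx1 (0.973) and Tmprss13 (0.968) for Pdgfa. For Pdgfb they were Paqr5 (0.999) and Nmt1 (0.956), and for Pdgfc Etv1 (0.963) and Lin7c (0.955). These values describe 9 points that share list length and quality, and with few calls per gene 1 list can set them.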

How the data were processed

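ATAC-seq was analysed in 9 biological samples of maxillary mesenchyme, 3 per stage, from 23 library runs. Bowtie2, MACS2, deepTools 3.3.1 and the build mm10 are named in the submitters' processing notes. For the filtering of reads, the shift for Tn5 and the peak threshold, nothing is given in the sources used here. In the deposited lists each peak has 1 row with its summit position, a fold over background (a ratio) and −log10 p and −log10 q. The deposited values were used to describe peaks and lists, to rank peaks inside a list and to filter peaks. No test was made on them across lists.

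Peaks sharing 1 bp or more were merged over the lists, on the 19 autosomes and X. Nearest genes came from 21631 protein-coding genes of RefSeq (GRCm38.p6), in which exons and introns were not separated. Expected calls came from a conditional Rasch model fitted over all regions called by 1 to 8 lists, and the model and test were tested on simulated calls. The residuals went into limma 3.58.1 (R 4.3.3; stage as a factor, all 9 lists, Benjamini-Hochberg adjustment over all genes, threshold 0.05). Its prior degrees of freedom were 98.21, so a variance shared by all genes carries most of the weight in the p-values. Other steps used pandas 2.3.3, NumPy 2.4.6, SciPy 1.17.1 and Matplotlib 3.10.9 under Python 3.11.15.

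The members and gene lists were chosen with earlier results of these data known. Named genes are the 6 members, the genes that flank them, pathway and marker genes that passed the test, and the 2 genes most like each tested member. One pathway gene that passed is counted but not reported here. Regions described singly are those that all 3 lists of a stage called, those gained or lost, and, for a gene with neither, those with the most lists; others were chosen after their values were seen. Alternatives covered the peak threshold, list length, region width, the distance to genes, the number of regions per gene, the model and each sample left out in turn.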

Additional observations from a re-analysis of the deposited data

How the results depend on the processing

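With 3 lists per stage and no read counts, a missed call and a closed region cannot be separated, and most PDGF regions rest on 1 list. For E12.5 against E11.5, 1 PDGF gene passed limma at an adjusted p of 0.05, Pdgfc, whose test is a description and not evidence of a change. The number was 0 with a −log10 q of at least 5, with lists cut to equal length (5682 peaks), with regions within 20 kb, with regions called by 2 to 8 lists and with genes of at least 10 regions, and it was 0 to 1 when each sample was left out in turn. In the last 2 of those settings and with equal lists Pdgfc had too few regions to be tested. In the other 2 comparisons 0 passed in each setting run, but the strictest settings left few of the 5 PDGF genes to test. With regions called by 2 to 8 lists 0 could be tested, so the 0 there was fixed in advance. A −log10 q of at least 5 and equal lists left 1 gene each, and genes of at least 10 regions left 2. The number of PDGF regions gained or lost, 2, became 1 with a −log10 q of at least 5, with equal lists and within 20 kb, and ranged from 2 to 5 when a sample was left out. Leaving out a sample loosens the rule for gained and lost regions, since only the remaining lists of its stage had to meet it. The Pdgfra difference for E11.5 against E10.5, 0.29, turned to −0.87 with equal lists and ranged from −0.14 (without E11.5 sample 3) to 0.56 when a sample was left out. No other PDGF difference changed sign in the settings where its gene could be tested. Merging peaks up to 200 bases apart, tried after seeing the data, kept the Pdgfc call (limma adjusted p = 0.0142). Over all genes, the number passing ranged from 0 to 53 for E11.5 against E10.5 (18 as reported), 36 to 427 for E12.5 against E11.5 (242) and 0 to 9 for E12.5 against E10.5 (1).

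Sample numbers shared by the stages were not treated as pairs. The 9 same-numbered pairs had residual correlations of −0.0991 to 0.0163, none over 0.1. With the sample number as a replicate block, 1 PDGF gene passed for E12.5 against E11.5, and 22 and 250 of all genes passed for E11.5 against E10.5 and E12.5 against E11.5.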
